A study of Mus musculus with 4 samples.

Results

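The 387 broad promoter peaks of mouse cortex described here are stretches of H3K27ac, acetylation of lysine 27 on histone H3. All were 4000 bp or wider and lay at or near an annotated start site of a protein-coding gene. They were chosen by their measured width and by their position in the replicated peak list, under 3 conditions: an autosomal position, a width of at least 4000 bp, and overlap with the 1000 bp on either side of a transcription start site (TSS) of a coding gene in GENCODE vM21 basic on mm10. The replicated list held 72027 peaks, of which 70961 were autosomal and 17052 of these were promoter peaks, so that 2.27% of the promoter peaks were members. Their TSSs belonged to 403 of 20807 autosomal coding genes. These include alternative TSSs within genes, and with the 5′ end of each gene alone 286 peaks were left. A coding TSS lay inside the peak itself in all but 38 members.

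The tissue was left cerebral cortex from female mice 2 months of age, F1 hybrids of the strains C57BL/6J and CAST/EiJ (B6CASTF1/J). The 4 samples form 1 group and are 2 pools of 4 biosamples each, pool I and pool J, with 2 technical libraries per pool. There was no second tissue, genotype or treatment. Chromatin immunoprecipitation sequencing gave 1 peak list per pool, so a difference between the pools has no error, and the read depth behind each list is unknown. The sources used here do not say how reads of the CAST/EiJ alleles were aligned. Every width and signal below comes from the same reads that chose the members, and is given as a description without a test.

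H3K27ac is placed by the acetyltransferases CBP and p300 and marks active promoters and enhancers. At most active genes it flanks the TSS on a few nucleosomes, while at some genes, often those that set a cell's identity or stay highly transcribed, it runs on over neighbouring regulatory DNA and into the gene body. Most promoters of vertebrate genes lie in CpG islands, stretches in which the dinucleotide CG has escaped methylation and loss, and promoters without an island are more often those of tissue-restricted genes. In bulk tissue a peak sums many cell types, and acetylation in fewer cells cannot be told apart from less acetylation per cell.

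The promoters of broad peaks differed widely in their base sequence. Below are 180 bases of 5 promoters on mm10 (GRCm38.p6), from 150 bases before the TSS nearest to the peak's summit to the TSS and the 29 bases after it, written 5′ to 3′ on the strand of the gene. The first 4 are among the 15 widest members, and Qk has the highest CpG content of all members. The TSS nearest to the summit can be an alternative start within the gene, as at Akt2, and its sequence need not describe the first TSS of the gene. Capitals mark the CpG dinucleotides. The 150 bases before the TSS hold no annotated exon of a coding gene, except for 19 bases at Qk.
Bcl11a, chr11:24080520-24080699, plus strand: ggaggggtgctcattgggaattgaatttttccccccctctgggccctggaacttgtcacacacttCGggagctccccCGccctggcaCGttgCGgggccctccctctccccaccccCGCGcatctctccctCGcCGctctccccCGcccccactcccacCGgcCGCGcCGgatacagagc
Akt2, chr7:27605667-27605846, plus strand: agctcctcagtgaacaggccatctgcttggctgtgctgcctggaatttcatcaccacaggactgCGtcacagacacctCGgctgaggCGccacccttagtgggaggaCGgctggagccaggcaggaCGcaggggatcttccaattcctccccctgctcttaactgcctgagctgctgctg
Pde2a, chr7:101450370-101450549, plus strand: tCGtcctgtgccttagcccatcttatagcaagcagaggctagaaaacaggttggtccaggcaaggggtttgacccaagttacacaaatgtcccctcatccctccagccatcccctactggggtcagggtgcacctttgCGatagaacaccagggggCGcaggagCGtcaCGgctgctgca
Zbtb18, chr1:177445671-177445850, plus strand: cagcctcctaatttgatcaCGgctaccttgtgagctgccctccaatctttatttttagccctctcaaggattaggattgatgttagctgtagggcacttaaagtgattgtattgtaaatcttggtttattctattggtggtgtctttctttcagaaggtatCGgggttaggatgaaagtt
Qk, chr17:10319332-10319511, minus strand: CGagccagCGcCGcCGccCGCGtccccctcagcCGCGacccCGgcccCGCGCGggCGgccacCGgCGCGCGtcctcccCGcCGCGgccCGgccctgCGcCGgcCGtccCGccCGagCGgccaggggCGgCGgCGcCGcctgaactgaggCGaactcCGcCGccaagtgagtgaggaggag
In these 180 bases there were 13 CpG dinucleotides at Bcl11a, 5 at Akt2, 5 at Pde2a, 2 at Zbtb18 and 34 at Qk. These stretches lie inside the member at Bcl11a, Akt2 and Zbtb18. The Pde2a member began 37 bp and the Qk member 816 bp after the TSS, so that both stretches lie before the peak. Over the 500 bp on either side of the TSS, the ratio of observed to expected CpG was 0.46 at Bcl11a, 0.16 at Akt2, 0.40 at Pde2a, 0.20 at Zbtb18 and 1.22 at Qk. Among other very wide members it was 0.90 at Mras and 0.96 at Rtn4r, so that breadth was found on CpG-dense promoters too.

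Transcription factor genes of the forebrain were among those with the widest members. The peak over Bcl11a, a zinc-finger repressor of projection neurons, was 11773 bp wide (chromosome 11, 24073125–24084897) and had a signal of 13.9 in the unit of the authors' peak caller. It began 7545 bp before the TSS nearest to its summit and ended 4227 bp after it. The pool I list had a single peak of 11832 bp there, and the pool J list had 3 peaks, of which the widest was 7072 bp. Pool J peaks together covered 94.8% of the member. The region was therefore acetylated along nearly all of its length in either pool, and the pools differed in whether it was called as 1 peak or in pieces.

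Zbtb18 and Tcf4 had the same pattern. Zbtb18, a zinc-finger repressor required for cortical neurons to mature, had 10807 bp (chromosome 1, 177444473–177455279, signal 9.07), with 1 peak of 12979 bp in pool I and a widest of 4 peaks of 3378 bp in pool J, which together covered 84.3% of it. The widest of the members at Tcf4, a basic helix-loop-helix factor, had 16348 bp and a signal of 17.4, with 1 peak of 16362 bp in pool I and a widest of 6 peaks of 8983 bp in pool J. Those 6 covered 94.7% of the member. Each of these regions was 1 peak in pool I and in pieces in pool J.

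Several of the other widest members were at genes of signalling and the cytoskeleton. Akt2, a kinase of insulin signalling, had 11557 bp (chromosome 7, 27594852–27606408), Pde2a, a phosphodiesterase that cyclic GMP activates, had 11345 bp (chromosome 7, 101450557–101461901), and Sept8, a septin GTPase, had 10692 bp (chromosome 11, 53519024–53529715). Mras, a Ras-related GTPase, had 10561 bp, and Elmo2, an adaptor for the activation of Rac, had 10309 bp. The signals of these 5 ran between 7.82 at Akt2 and 16.8 at Sept8. In pool J these regions were divided into 7 peaks at Mras, 6 at Elmo2 and 4 at each of the others. In pool I, Pde2a, Sept8 and Mras had single peaks. Akt2 and Elmo2 were divided there too, with widest peaks of 10723 and 6927 bp.

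A few very wide members were nearly whole in pool J as well. Sparcl1, a synapse-organizing protein that astrocytes secrete, had a member of 10021 bp (chromosome 5, 104106484–104116504, signal 14.2), a pool I peak of 10107 bp and a single pool J peak of 9415 bp. Setd1b, a methyltransferase for lysine 4 of histone H3, had 9729 bp (chromosome 5, 123134172–123143900), with 9808 bp in pool I and 8614 bp in pool J. Its signal of 30.9 was the second highest of all members. Of the 15 widest members, 15 were also 4000 bp or wider in pool I and 11 in pool J. Synpo, an actin-binding protein of dendritic spines, had a member of 9683 bp. It was divided in both pools, with a widest peak of 7590 bp in pool I and 7970 bp in pool J. Rtn4r, the Nogo receptor of axons, had 9602 bp and was not whole in pool J, where it was in pieces with a widest of 5169 bp.

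**Figure D1:**
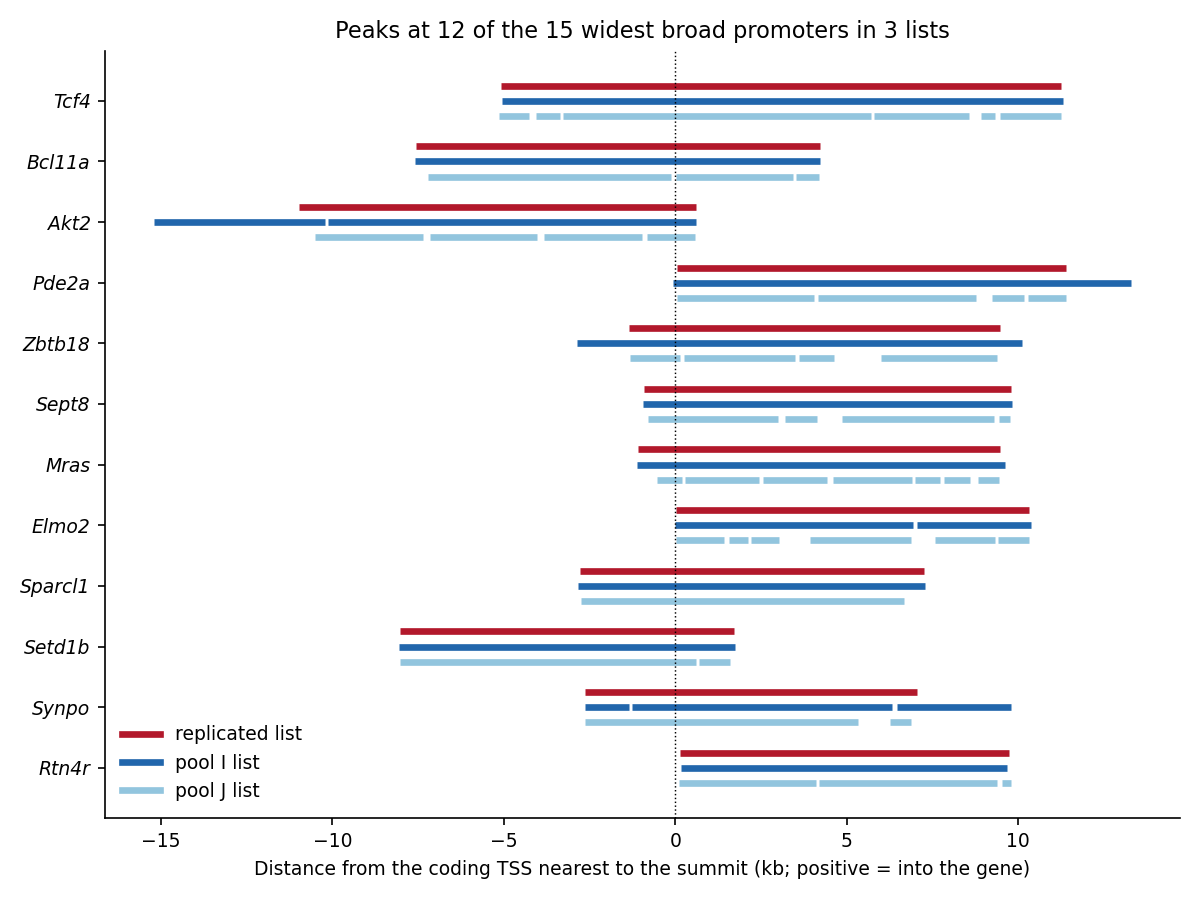
Extent of the peaks at 12 of the 15 widest members, drawn as horizontal bars in kb from the coding TSS nearest to the member's summit, positive into the gene, for the replicated, pool I and pool J lists. The bars of the replicated and pool I lists run without a gap at Tcf4, Bcl11a and Zbtb18, where the pool J list has 6, 3 and 4 bars.

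Most members were far narrower than these. The median width was 4952 bp with quartiles of 4349 and 5909 bp, 199 members were under 5000 bp, 30 reached 8000 bp and 12 reached 10000 bp. The members nearest to the threshold were at Itm2c, a membrane protein that restrains amyloid precursor processing, with 4001 bp, at Crip2, a LIM domain protein, with 4002 bp, and at Rapgef2, an exchange factor for Rap1, with 4019 bp. Just outside it were Hecw1, a ubiquitin ligase, with 3994 bp, Id3, an inhibitor of basic helix-loop-helix factors, with 3992 bp, and Negr1, a neuronal adhesion protein, with 3989 bp. A few base pairs divide these 6, and the signal of Negr1 (20.1) was above that of all 3 members named here, which had 11.1, 10.5 and 15.4. Together the members covered 2.12 Mb, which was 10.5% of the length of all autosomal promoter peaks.

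The median signal of the members was 12.6 (quartiles 9.93 and 15.9), against 11.6 in promoter peaks of 2000 to under 4000 bp, 9.45 in those of 1000 to under 2000 bp and 5.0 in those under 1000 bp. Over all 17052 promoter peaks, which share their libraries and depth, width and signal had a Spearman rank correlation of 0.67, and over the 387 members, whose widths span a range cut by the rule, it was 0.065. In the top decile of promoter signal were 35.4% of the members, against 27.5%, 15.7% and 2.07% of the narrower classes, and 6.98% of the members were under the promoter median of 7.03. The members thus lay mostly in the upper range of promoter signal, and the lowest of them had 3.85.

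The 5 members with the highest signal were at genes of different kinds. Brd2, a bromodomain protein that binds acetylated histones, had the highest at 32.0 in a peak of 4781 bp that also lay near H2-DMa (chromosome 17, 34119532–34124312). Setd1b came next, then Pcbp1, a poly(C)-binding protein of RNA, with 28.5 over 4125 bp, Kmt2e, a SET domain protein, with 27.2 over 5780 bp, and Igsf8, an immunoglobulin superfamily membrane protein, with 27.1 over 6112 bp. At Brd2 the pool I peak had a signal of 37.7 and the strongest pool J peak 26.0, and at Setd1b these were 17.6 and 26.7. Pool I thus had the higher signal at Brd2 and pool J at Setd1b, on scales for which the sources used here give no normalization. The lowest signals were those of Isyna1, an inositol phosphate synthase, with 3.85, the zinc-finger gene Zbtb20 with 4.19 and the zinc-finger gene Zfp366 with 4.32. These 3 had single pool I peaks of 4454, 7713 and 9118 bp and were broken into 4 pieces each in pool J.

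**Figure D2:**
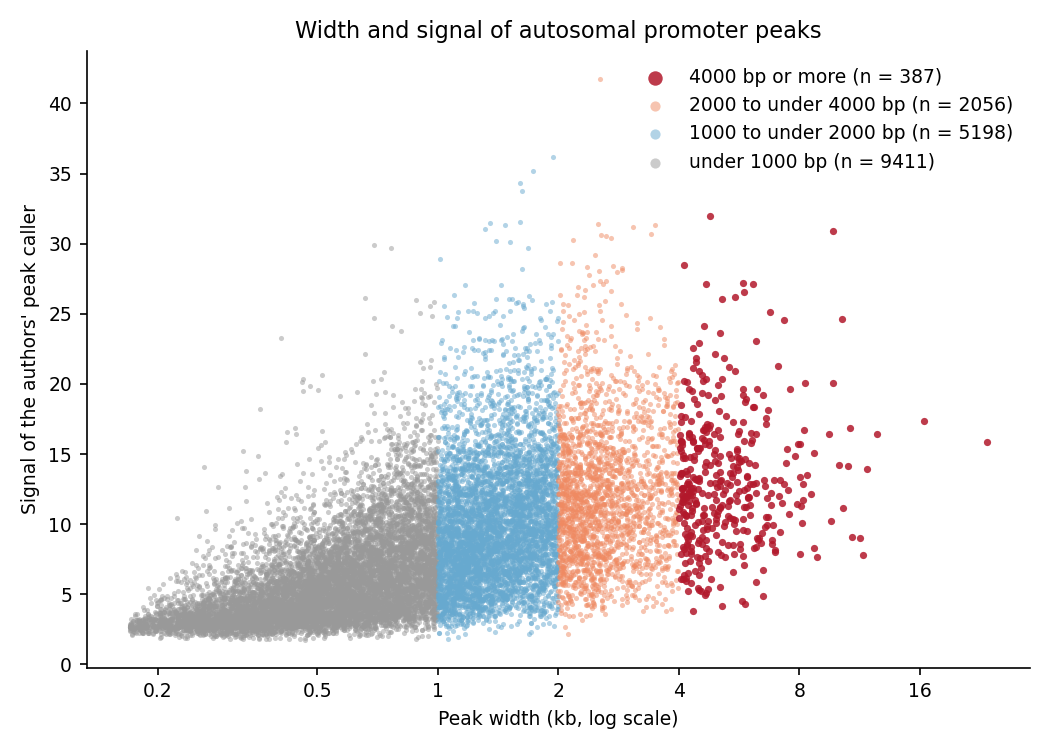
Signal of the authors' peak caller against peak width in kb (log scale) for each of the 17052 autosomal promoter peaks, coloured by width class. The 387 members lie right of 4 kb with signals between 3.85 and 32.0. Over all autosomal peaks, at promoters or not, the highest signal was 41.8.

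All 387 members overlapped a peak in the list of either pool. Of promoter peaks of 2000 to under 4000 bp, 100% overlapped a pool I peak and 99.9% a pool J peak. The peaks over the members were mostly wider in the pool I list than in the pool J list. In the pool I list 365 members were overlapped by a peak of 4000 bp or more, and in the pool J list 154 were. Such a peak was found in both pools for 146 members, in pool I alone for 219, in pool J alone for 8 and in neither for 14. The widest pool I peak over a member had a median of 1.02 times its width (quartiles 1.00 and 1.12), and the widest pool J peak 0.70 times (0.54 and 0.89). The members were thus about as wide in pool I as in the replicated list and narrower in pool J.

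The difference lay in how regions were divided more than in how much of them was covered. Pool I peaks covered a median of 100% of a member and at least 84.1% of every member. Pool J peaks covered a median of 90.7% (quartiles 84.6 and 95.8%), and under 50% of only 2 members. More than 1 pool I peak overlapped 39 members (10.1%), against 9.34% of promoter peaks of 2000 to under 4000 bp. More than 1 pool J peak overlapped 260 members (67.2%), against 31.9% of that class, a share that length alone raises. With the rule applied to each pool's own list, 553 of 16392 promoter peaks were broad in pool I and 149 of 15688 in pool J. At the level of genes these stood for 569 coding genes in pool I, 2.73% of all, and 154 in pool J, 0.74%. Of the 403 member genes 378 were also among the 569 of pool I, and of the 154 genes of pool J 153 were member genes. All 387 members had the same ends, signal, p and q in the list made from both pools, so their widths are those of peaks called on the combined reads.

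The widest peak was wider in pool I than in pool J at 368 of the 387 members, and wider in pool J at 19. At Kctd1, a potassium channel tetramerization domain protein, the pool J peak measured 5380 bp against 4450 bp in the replicated list, and at Camk2g, a calcium/calmodulin kinase subunit, it measured 4787 bp against 4322 bp. Vipr1, a receptor for vasoactive intestinal peptide, had 4706 bp in pool J against 4577 bp. At the other end, the widest pool J peak was 2311 bp at Mras against 10561 bp, 1000 bp at a promoter of Tbc1d24, a synaptic vesicle regulator, against 4532 bp, and 1108 bp at Qk against 4967 bp. At these 3 promoters pool J peaks still covered 86.8%, 55.6% and 50.1% of the member. Only 6 members had a pool J peak wider than themselves, and 298 had a wider pool I peak.

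Breadth ran mostly into the gene. For the 357 members near the TSSs of 1 coding gene, the median reach was 3618 bp downstream of the TSS nearest to the summit and 1492 bp upstream of it. A larger reach downstream was found in 78.4% of them (95% Clopper-Pearson interval 73.8 to 82.6%), against 75.2% of promoter peaks of 2000 to under 4000 bp, 69.6% of those of 1000 to under 2000 bp and 55.5% of those under 1000 bp. The interval covers counting of peaks only and not the spread between mice. Peaks of the members covered 85.2% of these promoters at 2000 bp downstream and 33.6% at 2000 bp upstream. The summit lay within 1000 bp of the TSS in 80.7% of the members, against 90.8% in the next narrower class, so that more of the broad peaks had their highest point away from the TSS. A wider peak can have its summit farther from the TSS by its length alone.

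The longest one-sided reaches were those of several of the widest members. Pde2a, Elmo2 and Rtn4r had peaks that began after the TSS and ran 11381, 10323 and 9735 bp into the gene. Tbr1, a T-box factor of deep-layer cortical neurons, had a peak of 8861 bp that also began after the TSS nearest to its summit and reached 9114 bp. In the other direction, the Akt2 peak ran 10965 bp upstream of the TSS nearest to its summit and 591 bp downstream. That TSS is 1 of several of Akt2, and 23.5% of the 49275 bp gene was covered by the member. The direction of reach therefore depends on which TSS is taken where a gene has several.

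**Figure D3:**
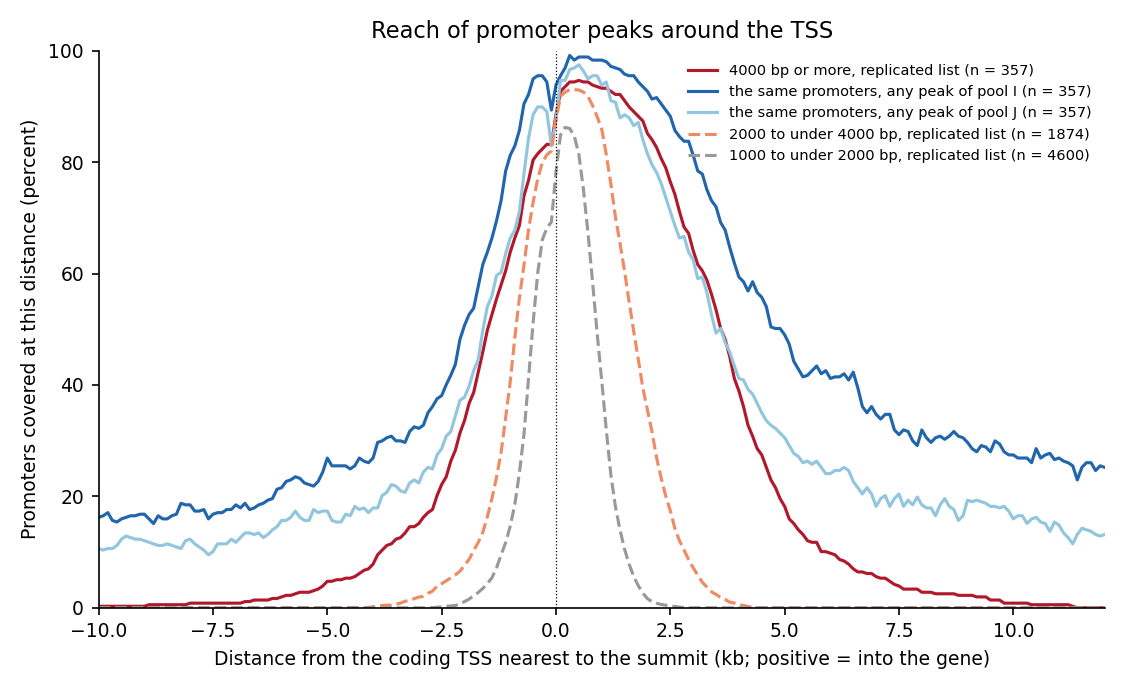
Share of promoters near 1 coding gene that are covered by a peak at each distance in kb from the coding TSS nearest to the summit, positive into the gene. Solid lines give the members and the pool I and pool J peaks at the same 357 promoters, dashed lines the 2 narrower classes. At 2 kb downstream the members' own peaks cover 85.2% and pool I and pool J peaks 92.7% and 81.5%, against 35.5% for peaks of 2000 to under 4000 bp.

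Some short genes were covered from end to end. Genes of 10 members were covered completely, while 124 members had a gene under 20 kb. A wide peak makes complete cover more likely by its length alone. The 10 included Ckb, the brain creatine kinase, whose 2978 bp lay under a peak of 9487 bp, Kcna3, a voltage-gated potassium channel of 1902 bp under 6838 bp, and Rhob, a small GTPase of 2349 bp under 6136 bp. The peak near Rin1, a Ras effector with a gene of 6591 bp, covered 0% of it. At Cdk5r1, the p35 activator of the kinase Cdk5, 98.9% of the gene was covered and the peak measured 8176 bp, 8159 bp in pool I and 8201 bp in pool J. The median gene of a member was 42087 bp long with 8.74% of it covered. Genes over 100 kb made up 32.0% of the members' genes, against 27.5%, 18.4% and 16.7% in the 3 narrower classes, and genes under 20 kb made up 32.0%, against 35.1%, 37.7% and 39.7%. Both short and long genes thus carried broad peaks, with long ones more frequent than among narrower peaks.

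Broad promoter peaks held CpG-rich TSSs less often than narrower ones. A TSS was called CpG-rich where the 500 bp on either side had an observed to expected CpG ratio of at least 0.6 and at least 50% G and C. By this measure 60.5% of the members had a CpG-rich TSS (95% Clopper-Pearson interval 55.4 to 65.4%), against 72.4% of promoter peaks of 2000 to under 4000 bp (70.4 to 74.3%), 77.9% of those of 1000 to under 2000 bp and 73.5% of those under 1000 bp. A wider peak can hold more TSSs, and among peaks with 1 TSS in the window the shares were 55.6% in members, 66.5%, 72.5% and 67.2%. The median ratio at the TSS nearest to the summit was 0.65 in members and 0.73, 0.75 and 0.74 in the narrower classes, and the lower quartile was 0.44 in members, against 0.56, 0.62 and 0.58. No test was made of these differences, since the members of neighbouring classes were divided by width in the same list. The intervals cover counting of peaks only and not the spread between mice, so they do not compare the classes.

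The extremes named genes of different kinds. After Qk, an RNA-binding regulator of splicing, the highest ratios were those of Pcbp1 with 1.10 and Irf2bp2, a transcriptional repressor, with 1.07. As given above, the CpG-dense start of Qk lay outside the member. The lowest ratios were 0.066 at Gas7, a growth arrest-specific gene active in neurons, 0.099 at Nup93, a nucleoporin, and 0.13 at 1 of the promoters of Dlgap3, a postsynaptic scaffold. The other broad promoter of Dlgap3 had a ratio of 0.79, with a signal of 16.5 against 11.2 at the CpG-poor one.

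The CpG-dense DNA filled a small part of most members. CpG-rich windows of 200 bp covered a median of 723 bp of a member, which was 14.5% of its width, against 778 bp or 30.2% in promoter peaks of 2000 to under 4000 bp. The length of CpG-rich sequence was therefore about equal in the 2 classes, while the peaks differed in width. The most was found at Bahcc1, a chromatin protein with a bromo-adjacent homology domain, with 4162 bp of a member of 8540 bp, and at Pcdh7, a protocadherin, with 3945 bp of 6963 bp. Scrt1, a zinc-finger repressor of neurons, had 3474 bp of 7243 bp. Members with 0 bp included those of Rtn4, which encodes the axon growth inhibitor Nogo, and Map1a, a microtubule-associated protein.

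**Figure D4:**
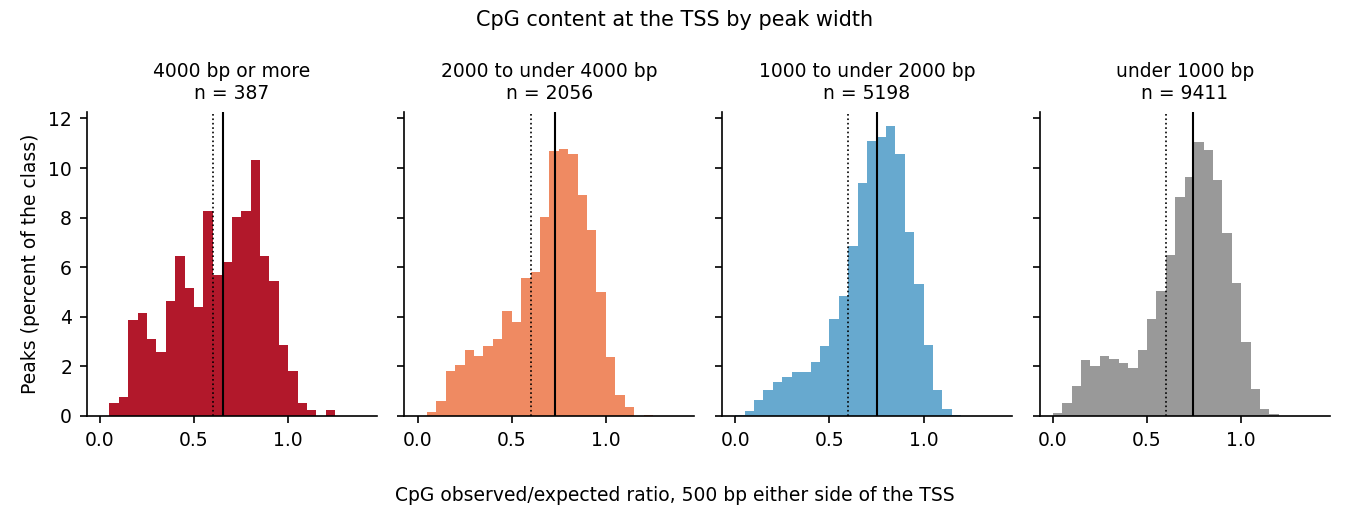
Distribution of the observed to expected CpG ratio over the 500 bp on either side of the TSS nearest to the summit, as the percent of peaks of each width class, with the members at the left. Solid lines mark the medians (0.65 in members, then 0.73, 0.75 and 0.74) and dotted lines the ratio of 0.6, and the members have a broader lower flank.

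Several short sequence matches around the TSS were less frequent in members than in narrower peaks. The 150 bp on either side of the TSS nearest to the summit were searched on both strands, and this window can lie outside the peak. The ETS letters CCGGAAG were found at 4.91% of the members, against 8.03%, 18.05% and 16.7% of the 3 narrower classes and 11.3% of all distinct coding TSSs. The NRF1 letters GCGCATGC were found at 1.03%, against 2.58%, 5.08% and 4.82%, and 3.02% of all TSSs. The GC box GGGCGG was found at 58.1% of the members, against 67.1%, 69.1% and 69.0%, and 47.2% of all TSSs, so that the members lay below the narrower peaks and above all TSSs. These 3 sets of letters hold CpG, and their matches overlap in part with the CpG content described above.

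For the 4 sets of letters without CpG that follow, the members were not below every narrower class. The E-box CAGCTG matched 17.3% of the members, against 18.5%, 16.5% and 15.9%, and 17.2% of all TSSs, and the E-box CAGATG 12.7%, against 11.1%, 8.77% and 9.69%, and 13.9% of all TSSs. The AP-1 letters TGANTCA matched 5.43% of the members, against 4.23%, 4.00% and 3.67%, and 5.80% of all TSSs. The TATA letters TATAAA matched 4.39% of the members, against 5.84%, 3.81% and 4.30%, and 9.73% of all TSSs, while the MEF2 letters CTAAAAATA matched 1 member and 0.341% of all TSSs. A match describes the letters in the window only.

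The cyclic AMP response element TGACGTCA, the full site that the factor CREB binds, was in the window of 7 members, 1.81%, against 3.36%, 3.21% and 2.99% of the narrower classes and 2.11% of all coding TSSs. Of these 7, 4 with the element before the TSS are printed here as examples, with the element in capitals and 20 bases on either side. The element was also found 45 bases before the TSS of Lrrtm2, and after the TSS by 15 bases at Asphd1 and by 112 bases at Neurod6. An element in the window need not lie inside the member. At Neurod6 it lay outside the member, and no coding TSS lay inside the Rundc3a member.
Snap25, chr2:136713415-136713462, plus strand: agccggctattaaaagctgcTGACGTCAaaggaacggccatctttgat
Ptprs, chr17:56476448-56476495, minus strand: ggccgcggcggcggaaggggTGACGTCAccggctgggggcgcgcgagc
Prkcz, chr4:155345769-155345816, minus strand: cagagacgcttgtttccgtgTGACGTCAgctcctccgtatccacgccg
Rundc3a, chr11:102393373-102393420, plus strand: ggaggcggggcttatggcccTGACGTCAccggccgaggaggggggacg
The element began 43 bases before the TSS of Snap25, the SNARE protein of vesicle fusion, 36 before that of Ptprs, a receptor tyrosine phosphatase of synapses, 24 before that of Prkcz, an atypical protein kinase C, and 10 before that of Rundc3a, a RUN domain protein of neurons. The Snap25 member measured 4347 bp with 4753 bp in pool I and a widest pool J peak of 2155 bp. It began 50 bp before the TSS and ran 4296 bp into the gene.

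Among the gene lists, markers of excitatory neurons and transcription factors of the cortex had the largest shares of genes with a broad promoter peak. Such a peak was counted for 8 of 14 excitatory neuron markers (57.1%) and 17 of 40 cortical transcription factors (42.5%), against 1.94% of all autosomal coding genes. A promoter peak of any width was found at 59.3% of all coding genes and at all 14 and all 40 of these. The median of the widest promoter peak per gene was 4831 bp for the excitatory markers and 3605 bp for the transcription factors, against 1202 bp for all coding genes with a promoter peak. The lists were written with earlier results of these data known, 4 of the 17 transcription factors are also excitatory markers, and the widths come from the rule itself, so the shares are a description. Neurod6 counted in both lists, though the summit of its member lay 4150 bp after the TSS of a gene of 3442 bp. With a TSS window of 500 bp the counts were 7 excitatory markers and 16 transcription factors.

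In the transcription factor list Tcf4, Bcl11a and Zbtb18 had members of over 10000 bp. Tbr1 had 8861 bp, Foxp1, a forkhead factor of projection neurons, 6687 bp, and Mef2c, a MADS-box factor that limits synapse number, 6231 bp. Pou3f3, a POU-domain factor of upper-layer neurons, had 5598 bp, Nr2f1, an orphan receptor that patterns cortical areas, 5447 bp, and Sox4 5218 bp. Between 4000 and 5000 bp were Zeb2, Nfib, Nfia, Myt1l and Neurod6. Some well-known layer factors lay below the threshold, among them Neurod2 with 3766 bp, Fezf2 with 3703 bp, Bcl11b with 3634 bp and Cux2 with 3316 bp. In the pool I list 21 of the 40 had a broad promoter peak, and in the pool J list 10 did.

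Among excitatory markers Tbr1 had 8861 bp. Arpp21, a phosphoprotein of cyclic AMP signalling, had 6672 bp in the replicated list, 6672 bp in pool I and 4034 bp in pool J. Nrn1, the membrane-anchored growth factor neuritin, had 6223 bp, with 6191 bp in pool I and 5925 bp in pool J, and was among the least divided. Lmo4, a LIM-only factor, had 5601 bp in the replicated list but widest promoter peaks of 3603 bp in pool I and 2911 bp in pool J. The vesicular glutamate transporter Slc17a7, the defining marker of these neurons, had 3213 bp and a signal of 13.0, below the threshold of width. All 14 of these markers had a promoter peak, as had all listed genes of several other lists, so this does not test the label of the tissue.

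Splicing regulators and synaptic genes were the next lists. Broad peaks were found at 8 of 23 RNA-binding and splicing genes (34.8%), with Celf2, which regulates splicing in neurons, at 7111 bp, Celf5 at 6326 bp and Rbfox3, the antigen known as NeuN, at 5020 bp. Of the 26 postsynaptic genes 9 had one (34.6%), led by Kalrn, an exchange factor of dendritic spines, with 8687 bp, and the glutamate receptor subunits Gria2 with 4960 bp and Grin2a with 4926 bp. Of the 22 presynaptic genes 5 had one (22.7%): Nrxn2, a presynaptic adhesion protein, with 7957 bp, Syt1, the calcium sensor of release, with 7552 bp, Bsn, a scaffold of the active zone, with 5658 bp, Ppfia3 with 5420 bp and Snap25. Voltage-gated channels also had 5 of 22, among them the potassium channels Kcnh7 at 5104 bp, Kcnq3 at 4570 bp and Kcnma1 at 4323 bp. In pool I, broad promoter peaks stood at 7 splicing, 11 postsynaptic, 5 presynaptic and 7 channel genes, and in pool J at 2 splicing, 2 postsynaptic, 1 presynaptic and 0 channel genes.

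Activity-regulated genes held 3 broad promoter peaks among 26 genes (11.5%), against 1.94% of all coding genes, with 5 in pool I and 3 in pool J. With peaks within 500 bp joined, 13 of the 26 had one. Per1, a clock gene that neuronal activity also induces, had 6268 bp with 6356 bp in pool I and 5894 bp in pool J, and Junb, an AP-1 factor, had 5861 bp with 6083 bp and 5727 bp. Fosl2, another AP-1 gene, had 4450 bp, with a widest peak of 2993 bp in pool I and 4431 bp in pool J. Arc, the synaptic immediate early gene, measured 3411 bp and Egr3 3515 bp. Of the 3 members of the list, Fosl2 was the 1 divided in pool I.

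The lists of genes needed in every cell had no broad promoter peak. None was found at the 26 ribosomal protein genes, 24 proteasome genes and 23 autosomal genes of oxidative phosphorylation, although all of these genes had a promoter peak, and the count was 0 in the list of either pool. With 1.94% of all coding genes broad, lists of this size hold few such genes in any case, and nothing is read from the 0 alone. Their median widest promoter peaks were 1232, 1287 and, for the proteasome genes, 892 bp. The first 2, of ribosomal protein and oxidative phosphorylation genes, were close to the 1202 bp of all coding genes with a promoter peak, and the proteasome median was lower. The widest peaks of the 3 lists were 2514 bp at Rpl7, 2645 bp at the proteasome subunit Psmb1 and 2021 bp at Ndufb3 of complex I. Their signals of 14.7, 12.1 and 16.6 were within the quartiles of the members or above them. Among chromatin regulators 3 of 32 were broad (9.38%), 3 in pool I and 1 in pool J, and 0 had a peak of 4000 bp or more in both pools. The 3 were the remodellers Chd3 with 5907 bp, Chd4 with 4486 bp and Smarca2 with 4141 bp.

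Astrocyte markers were broad about as often as presynaptic genes, against 1.94% of all coding genes. Markers of interneurons, oligodendrocytes, microglia and endothelial cells were broad less often than those of astrocytes. Of 18 astrocyte markers 4 were broad (22.2%), 4 in pool I and 1 in pool J, among them Sparcl1, the glutamate transporter Slc1a2 with 5631 bp and glutamine synthetase Glul with 5005 bp. The rest of the astrocyte markers were not broad. Gfap had no promoter peak, and the widest was 357 bp at S100b, 445 bp at Aldh1l1, 496 bp at Aqp4 and 3141 bp at Clu. Of 20 interneuron markers 2 were broad (10%), 2 in pool I, 1 in pool J and 1 with a TSS window of 500 bp. The 2 were Satb1 with 5757 bp, whose signal of 4.51 was among the lowest of the members, and the cannabinoid receptor Cnr1 with 5580 bp. Pvalb, Sst and Vip, which define the main interneuron classes, had no promoter peak. Of 18 oligodendrocyte markers Qk alone was broad, with 2 markers broad in pool I, 0 in pool J and 0 with a TSS window of 500 bp. Qk is expressed in other cells too and stands in the splicing list as well, and Cnp came next with 3691 bp. None of the 16 microglia markers and none of the 15 endothelial markers was broad, and promoter peaks of any width stood at 9 and 13 of them. At the 39 Hox genes there was no promoter peak of any width. The share of each cell type in the tissue was not measured, and its part in these counts was not tested.

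**Figure D5:**
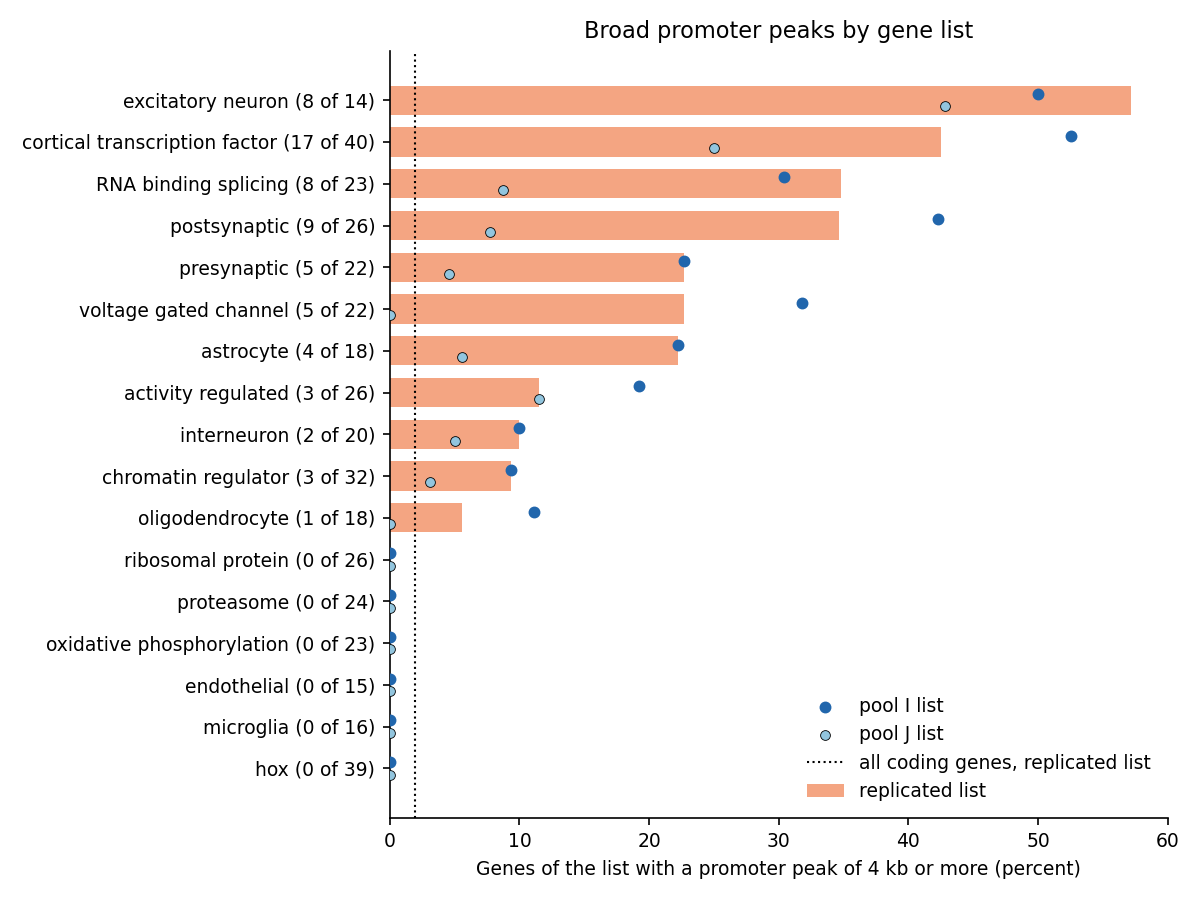
Percent of the autosomal coding genes of each list with a promoter peak of 4 kb or more in the replicated list (bars), the pool I list and the pool J list (points), with the count in the replicated list after each name and all coding genes (1.94%) as a dotted line. Excitatory neuron markers (57.1%) and cortical transcription factors (42.5%) are at the top, and 6 lists have no gene with such a peak in any of these lists.

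Many broad promoter peaks had other peaks close by, as had promoter peaks under 1000 bp. The next peak lay within 500 bp of 65.4% of the members, against 48.3%, 43.5% and 71.9% of the narrower classes, and the median distance to it was 217 bp, against 207 bp in promoter peaks under 1000 bp. The median number of other peaks within 50 kb was 12 for the members, against 8, 5 and 5 in the narrower classes and 20 for broad distal peaks. Lingo1, a coreceptor of the Nogo receptor, had the most with 50, Tcf4 had 42 and Mef2c had 40. At the other end Lrrc7, a scaffold of the postsynaptic density, Tle3, a corepressor, and Nrp1, a semaphorin receptor, had 0. These isolated members were 4060, 4081 and 4415 bp wide.

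In 16 genes there were 2 or more broad promoter peaks, of which 14 had 2 and 2 had 3. Zmynd8, a reader of histone marks, had members of 6434, 8379 and 7333 bp at 3 promoters on chromosome 2 (165854254–165860687, 165872646–165881024 and 165881637–165888969). In the pool I list the 8379 and 7333 bp members lay under a single peak of 16348 bp. Tcf4 had members of 6001, 8068 and 16348 bp at 3 promoters spread over its 345724 bp. Mef2d, the sister gene of Mef2c, had members of 5030 and 4322 bp with 98 bp between them, and Myt1l, a zinc-finger factor of neuronal identity, had 4067 and 4293 bp close together. At Mef2c the 2 members, of 4639 and 6231 bp, were further apart. Neighbouring members such as those of Mef2d, Dlgap3, Tnrc18 and Myt1l were divided by short gaps, which bears on every count of peaks given here.

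Some members lay near more than 1 coding gene. The TSSs of 2 or more coding genes lay near 30 members (7.75%), against 8.85% and 11.5% in the 2 classes next in width, so that shared promoters were no more frequent among the members. Examples are the peak of 8170 bp at genes that include Pagr1a, Pagr1b and the presynaptic gene Prrt2, that of 5880 bp at Ciz1 and Dnm1, the dynamin of synaptic vesicle recycling, and that of 5592 bp at Pank4 and Hes5, a Notch target. Which of the genes the acetylation at such a peak belongs to was not measured. A TSS of a long non-coding RNA lay inside 20.4% of the members, against 13.0%, 8.37% and 3.35% of the narrower classes, a share that length alone raises. Setd1b held 3 of them, 4932422M17Rik, AI480526 and Gm38102, and Zmiz1, a transcriptional coactivator, held Gm47920 and Zmiz1os1. The number of coding TSSs inside a member had a median of 2, and the most were 14 at Anks1b, a postsynaptic signalling protein, and 12 at Bad, a proapoptotic BCL-2 family protein.

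The members were spread over all 19 autosomes. They made up between 1.56% of the promoter peaks on chromosome 4 and 3.30% on chromosome 3. The largest number, 40, was on chromosome 2, which had 1423 promoter peaks. Broad peaks away from promoters were about as frequent, with 439 distal ones, so that 46.9% of the 826 broad autosomal peaks were at promoters. The median signal was 12.6 in the members and 8.58 in the broad distal peaks, with median widths of 4952 and 4931 bp. At similar median width, the promoter peaks thus had the higher signal, in values of the list that chose both.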

How the data were processed

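H3K27ac ChIP-seq of 4 libraries was deposited as 4 peak lists on mm10 (replicated, both pools, pool I, pool J). The coordinates, the signal, the −log10 p and the −log10 q of each peak are the authors' deposited values. The peak caller, aligner and normalization are not stated in the sources used here, no reads were counted, and the depth is unknown. Widths are end minus start. TSSs came from GENCODE vM21 basic and bases from GRCm38.p6, where no peak ended past a chromosome. Peaks of different lists were matched at 1 bp. Python 3.11.15, pandas 2.3.3, scipy 1.17.1 and pysam 0.24.0 were used, and the scripts were tested on simulated peaks. Members, the 17 gene lists and alternatives were chosen with earlier results of these data known. Genes named are the 15 widest, the 5 highest in signal, 3 on each side of the threshold, 3 per list and the extremes of each further measure, and others were chosen after their values were seen. The printed 180 bases are part of windows of 300 bases centred on the TSS, and the sequence of the member with the lowest CpG ratio is not printed. No test was made, since widths and signals chose the members. Intervals are exact binomial. A few members within this rule are not reported here.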

Additional observations from a re-analysis of the deposited data

How the results depend on the processing

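No alternative gave a test, and the reach downstream and the share near 2 or more genes stayed close to the values above under most of them. At a width of 3000 bp there were 890 broad promoter peaks at 908 genes, 5.22% of promoter peaks, with a CpG-rich TSS in 65.4%; at 5000 bp there were 188 at 198 genes, 1.10%. With peaks within 500 bp joined, the numbers were 1024 peaks, 1067 genes, 8.44% and 67.1%. Broad peaks were 2.03% of promoter peaks with a TSS window of 2500 bp, 1.95% with the gene's 5′ end only, where 86.7% reached farther downstream, and 2.63% at a −log10 q of at least 5. Leaving out 1 pool gave between 149 (pool J list) and 553 peaks (pool I list), 154 and 569 genes, 0.95% and 3.37% of promoter peaks, and a CpG-rich share between 61.8% and 67.8%. That share was 69.3% at a CpG ratio of 0.5, 41.1% at 0.75 and 48.6% with 1000 bp on either side of the TSS. Of 2 alternatives chosen after the data were seen, the TSS nearest to the summit gave 55.3%, and a peak of 4000 bp or more in the list of each pool left 146 peaks at 152 genes, 65.8% of them CpG-rich. The gene list counts moved in 46 of 187 cases. With the gene's 5′ end only, cortical transcription factors with a broad peak fell from 17 to 11 and splicing genes from 8 to 3. Excitatory markers went from 8 to 6. With peaks within 500 bp joined, no list count fell. Cortical transcription factors rose from 17 to 30 and excitatory markers from 8 to 13. Presynaptic genes rose from 5 to 15, activity-regulated genes from 3 to 13 and chromatin regulators from 3 to 10. The ribosomal, proteasome and oxidative phosphorylation lists stayed at 0. Each pool gave 1 list and the depth is unknown, so no difference between the pools has an error, and a region called in pieces counts as narrower. No paired analysis was possible because the samples form 1 group.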

Other observations

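The X chromosome, which the choice of members left out, held 1 peak of 4000 bp or more, and it was at a promoter. It lay at Gpm6b, a proteolipid protein of myelin and neurons (chromosome X, 166344679–166348907), with 4229 bp and a signal of 9.46.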
